A study of Homo sapiens with 3 samples.

Results

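The E2F transcription factors and the retinoblastoma family of pocket proteins were followed in the human pancreatic carcinoma line PANC-1 after exposure to cantharidin or okadaic acid (OA). The members were taken by name: the activators E2F1, E2F2 and E2F3, the repressors E2F4 and E2F5, the atypical factors E2F7 and E2F8, and the pocket proteins RB1, RBL1 and RBL2. These 10 genes, of 19699 named genes on the array, were read by 13 of 34041 probes. E2F proteins bind promoters of genes needed for DNA replication, most of them as a pair with a DP protein. In resting cells and early G1 the pocket proteins hold E2Fs in a repressed state, and phosphorylation of the pocket proteins by cyclin-dependent kinases releases them. Phosphatases of the PP1 and PP2A families remove these phosphates, and both agents used here inhibit PP2A.

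There were 3 one-colour arrays, 1 each for PANC-1 cells labelled as control with no agent, PANC-1 cells given cantharidin, and PANC-1 cells given OA. The labels give 20 µM as the dose of each agent and 24 h as the length of treatment. The wording of the treatment protocol leaves the OA dose ambiguous, so 20 µM is quoted only as labelled. The labels name no vehicle for the control. Each group is 1 culture of 1 cell line on 1 array, so no difference has a replicate check, no test across arrays was possible, and no p-value is given. Intensities are quoted as the scanner software gave them. Differences are on the log2 scale after each array was divided by its 75th percentile, and the ± beside a difference is the error of the scanner software's own model, which covers the spot and not the culture. Both agents are set against the same control array, so the 2 differences from control share its error. A gene is called higher or lower at 1.5-fold. A fold is written "at least" where 1 array's signal was not well above background and lay under that array's lowest signal that was. Such a bound holds for the scanner software's background subtraction only.

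Between 23071 and 25103 probes were well above background on an array. The 5 epithelial markers KRT7, KRT8, KRT18, KRT19 and EPCAM were well above background on all 3 arrays, as was VIM, an intermediate filament of mesenchymal-like carcinoma cells. Of the markers of other cell types, 2 of 3 acinar, 2 of 2 endocrine and at least 2 of 3 endothelial markers were also well above background on each array. Since probes differ in brightness, levels of different genes were not compared.

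Under cantharidin, 7 of the 10 family members were lower than in control, 1 was higher and 2 stayed within 1.5-fold. Over all 16644 genes compared, 34.1% were lower, 27.5% were higher and 38.4% stayed within 1.5-fold. The median difference was -1.19 for the family and -0.16 for all genes. Under OA, 4 of the 10 members were lower, 1 was higher and 5 stayed within 1.5-fold, against 28.8% lower, 28.1% higher and 43.1% within of all 16166 genes compared. The median was -0.46 for the family and 0.01 for all genes. E2F1, E2F2, E2F5 and RBL2 were lower under both agents, E2F7 was higher under both, and E2F4 was within 1.5-fold under both. Among all 16049 genes compared with control for both agents, 21.1% were lower and 17.3% higher under both.

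**Figure D1:**
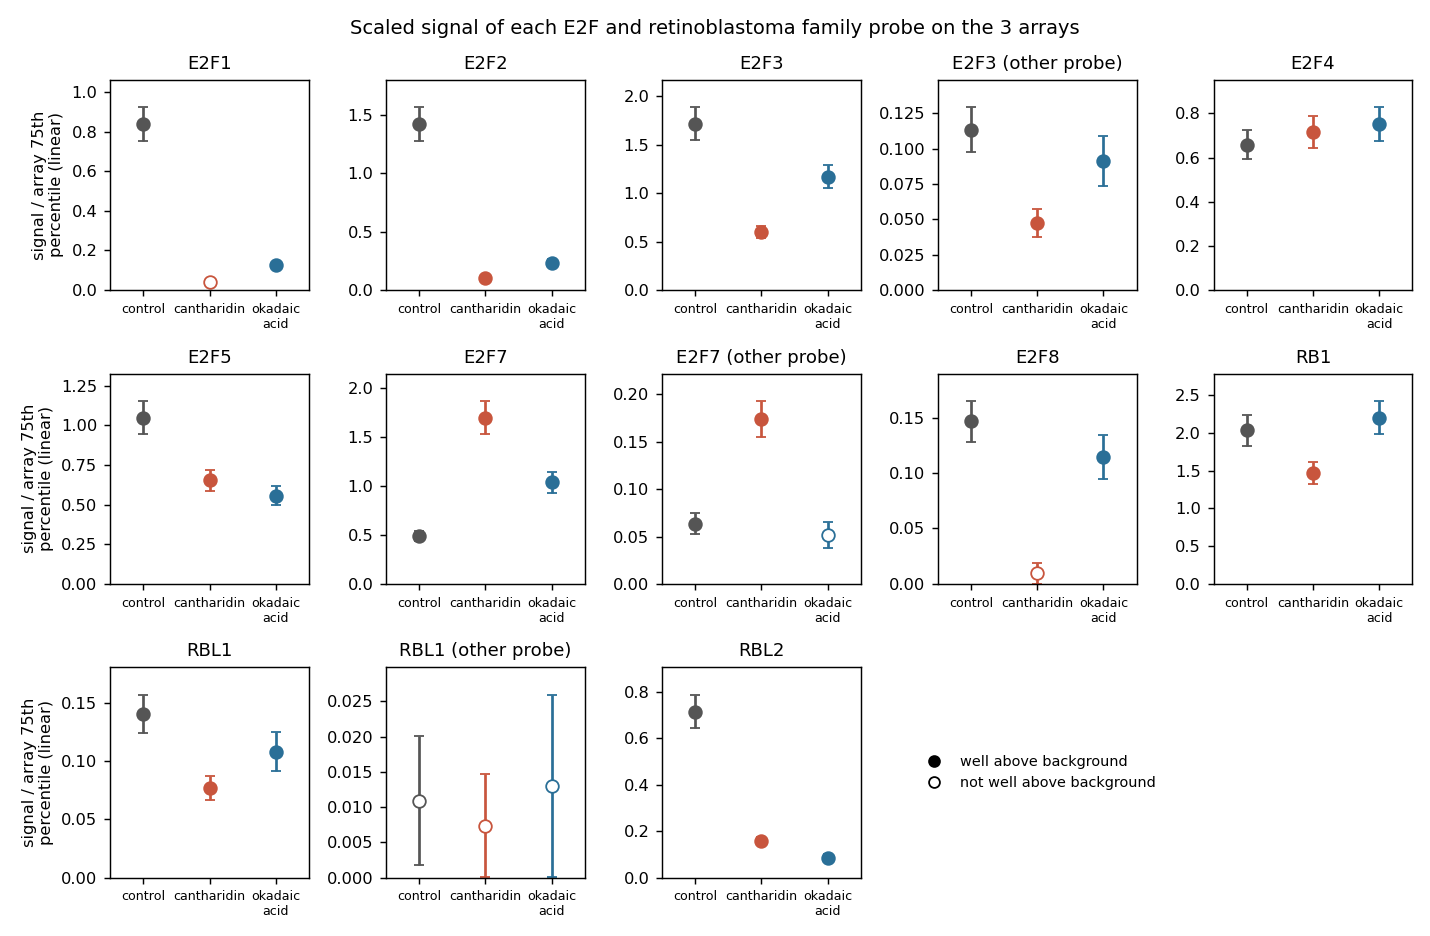
Signal of each of the 13 probes on the control, cantharidin and OA arrays, divided by that array's 75th percentile, on a linear axis that starts at 0 and differs between panels. Bars are the scanner software's error and open circles were not well above background: the E2F1 and E2F2 points of both agents lie far below control, the E2F7 points of the brighter probe lie above it, and the E2F4 points lie within 1.5-fold of it.

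The activator E2Fs, which drive transcription of S phase genes, were all lower under cantharidin, and E2F1 and E2F2 were also lower under OA. E2F1 (NM_005225) had an intensity of 658 in control, 28.1 under cantharidin and 118 under OA. The cantharidin signal was not well above background, in that 4 of its 9 spots used passed. With the scanner software's background subtraction E2F1 was 21.3-fold lower there. This is the measured fold and not a bound, since 28.1 lies above that array's lowest signal well above background (21.9). Another background correction (normexp, with an added offset) gave 6.11-fold (-2.61). Under OA it was 6.66-fold lower, a difference of -2.74 ± 0.26, and 4.10-fold lower (-2.04) with normexp. E2F1 was thus highest in control, intermediate under OA and lowest under cantharidin. In bulk RNA, fewer cells that express a gene and less of its RNA per cell cannot be told apart.

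The E2F1 probe was printed in 10 spots on each array, which gave a second view of the measurement error. Spot intensities ran from 618 to 702 in control, from 16.0 to 49.2 with cantharidin and from 101 to 131 with OA. Their SD on the log2 scale was 0.0513 in control (n = 10 spots), 0.444 under cantharidin (n = 9) and 0.104 under OA (n = 10). After scaling, the spot values of the 3 arrays did not overlap. These spots share 1 RNA sample each and are not replicates of a treatment.

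**Figure D2:**
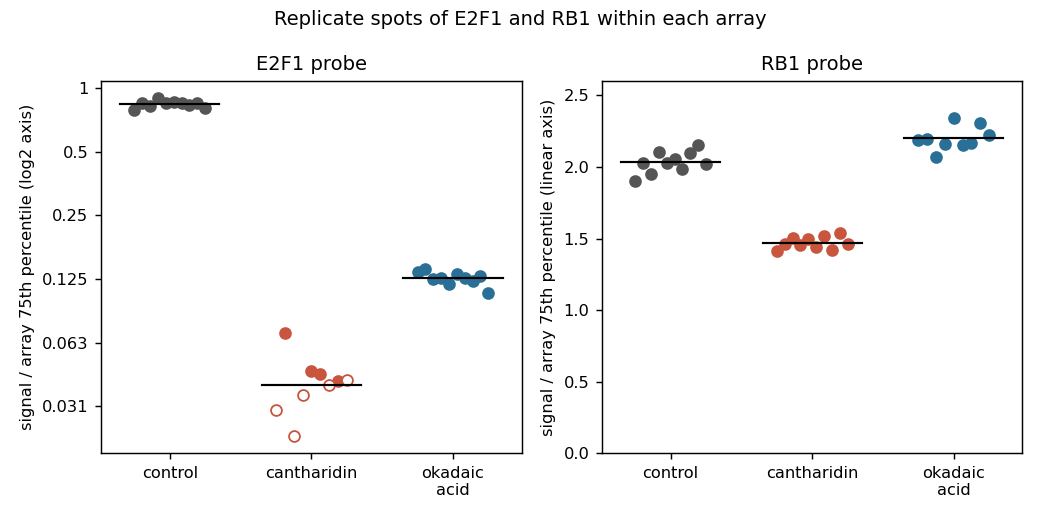
Every spot of the E2F1 probe (left, log2 axis) and of the RB1 probe (right, linear axis from 0) on each array, divided by the array's 75th percentile, with the mean log2 value as a line and open circles for spots not well above background. The E2F1 spots form 3 separate groups, while the RB1 spots of control and OA overlap and those of cantharidin lie below both.

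E2F2 (NM_004091) had intensities of 1117 in control, 74.1 under cantharidin and 221 under OA, all well above background. The decrease was 13.7-fold with cantharidin (-3.78 ± 0.23) and 6.05-fold with OA (-2.60 ± 0.22). With normexp the cantharidin decrease of E2F2 was 7.34-fold (-2.88). Its order over the arrays was that of E2F1, and its 2 differences from control were many times the scanner error.

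E2F3 (NM_001949) was read by 2 probes. The brighter probe gave 1347 in control, 426 under cantharidin and 1096 under OA, and the dimmer one gave 88.9, 33.6 and 85.3. By the brighter probe E2F3 was 2.87-fold lower under cantharidin (-1.52 ± 0.21), and under OA its difference of -0.55 ± 0.20 was 1.47-fold, just inside the threshold. The dimmer probe gave -1.26 ± 0.36 for cantharidin and -0.32 ± 0.35 for OA. Both probes therefore called E2F3 lower under cantharidin and uncalled under OA, where the dimmer probe's difference was smaller than its error.

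Promoter sequence is shown for the members with letters of the E2F binding site near their start, since E2F genes are textbook targets of E2F proteins. RefSeq (GRCh38.p14) windows of 300 bases, with 250 before the start and 50 after it, were matched for 8 of the 10 members, in 10 windows. The letters searched on both strands were TTTCCCGC, TTTGGCGC, TTTCGCGC and TTTGCCGC. Of the member windows, 4 of 10 (40%) held them, against 3.31% of all 35116 promoter windows, and these 4 belonged to E2F1, E2F2, E2F3 and RBL1. All 4 genes were lower under cantharidin, as were 7 of all 10 members, and E2F1 and E2F2 were also lower under OA. Among members whose windows lacked these letters, RBL2 was lower under both agents, E2F7 was higher under both, and E2F4 and RB1 were not called. E2F5 and E2F8 had no window and were also lower under cantharidin. Whether these letters go with a lower signal was not tested. Each stretch below ends at or near the start of transcription, is written 5′ to 3′ on the gene's strand, and has the matched letters in capitals (on the reverse strand, their complement). The E2F1 stretch is chr20:33686386-33686458 on the minus strand, that of E2F2 is chr1:23531234-23531315 on the minus strand, that of E2F3 is chr6:20401786-20401873 on the plus strand and that of RBL1 is chr20:37095998-37096063 on the minus strand.
E2F1: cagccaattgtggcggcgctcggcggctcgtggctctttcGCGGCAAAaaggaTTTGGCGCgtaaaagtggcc
E2F2: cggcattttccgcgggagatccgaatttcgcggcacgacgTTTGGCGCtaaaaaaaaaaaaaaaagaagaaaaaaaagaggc
E2F3: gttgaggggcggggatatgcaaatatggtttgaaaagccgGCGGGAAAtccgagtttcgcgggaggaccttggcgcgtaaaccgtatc
RBL1: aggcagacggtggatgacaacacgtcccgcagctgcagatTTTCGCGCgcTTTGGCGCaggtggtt

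E2F1 and RBL1 held 2 matches each, at -33 to -26 and -20 to -13 for E2F1 and at -26 to -19 and -16 to -9 for RBL1, counted in bases from the start. E2F2 held 1 match at -42 to -35 and E2F3 held 1 at -53 to -46. None of these matches overlapped a match to the other motifs searched. The other motifs were the GC box GGGCGG, present in 6 of the 10 member windows (60%) against 45% of all windows, the CCAAT box, in 4 of 10 (40%) against 34.6%, and the CHR letters TTTGAA, in 2 of 10 (20%) against 15.2%. The windows of E2F4, E2F7, RB1 and RBL2 held none of the 4 E2F words. The window of RB1 in the table lies at an internal start of the gene. A match to these letters is a description of the window and not a measurement of binding.

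The repressor E2Fs act mainly in complexes with pocket proteins, and of these only E2F5 was called. E2F4 (probe A_23_P152218) had intensities of 515 in control, 509 under cantharidin and 703 under OA. Its differences of 0.12 ± 0.21 and 0.19 ± 0.21 were no larger than the scanner error. E2F5 (probe A_23_P31721) had 822 in control, 466 under cantharidin and 522 under OA. It was 1.60-fold lower under cantharidin (-0.68 ± 0.21), the called member closest to the threshold, and 1.88-fold lower under OA (-0.91 ± 0.21). With normexp both E2F5 differences fell inside 1.5-fold, at -0.45 and -0.58.

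The atypical E2Fs bind DNA without a DP partner and repress E2F1 and other E2F targets. E2F7 was the only member called higher in either comparison with control. Its brighter probe gave 385 in control, 1207 under cantharidin and 969 under OA, an increase of 3.45-fold with cantharidin (1.79 ± 0.21) and of 2.11-fold with OA (1.08 ± 0.21). Its dimmer probe gave 49.8, 124 and 48.6, the last not well above background. By that probe the increase with cantharidin was 2.74-fold (1.46 ± 0.30), and its OA difference of -0.29 ± 0.46 was smaller than its error and not called. The probes thus gave the same direction under cantharidin, only the brighter one was called under OA, and the median over both probes was 0.39 for OA, inside the threshold.

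E2F8 had 115 in control, 6.80 under cantharidin, which was not well above background, and 107 under OA. It was at least 4.77-fold lower under cantharidin, while its difference of -0.36 ± 0.30 under OA was 1.28-fold. With normexp E2F8 was 2.03-fold lower under cantharidin (-1.02), still called. The pair of atypical factors therefore split under cantharidin, with E2F7 higher and E2F8 lower. E2F6, which represses E2F sites without pocket proteins and is outside the family as chosen, was looked at after its values were seen. Its 3 probes were all within 1.5-fold of control, with differences from -0.15 to 0.12 for cantharidin and from -0.49 to 0.25 for OA.

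Of the pocket proteins, RB1, which preferentially restrains the activator E2Fs, changed least. RB1 had 1594 in control, 1048 under cantharidin and 2059 under OA. Its difference was -0.47 ± 0.20 under cantharidin, or 1.38-fold, and 0.11 ± 0.20 under OA, or 1.08-fold, and neither was called. The 10 spots of its probe ran from 1491 to 1690 in control, from 1008 to 1097 with cantharidin and from 1934 to 2195 with OA, where 9 spots were used. After scaling, the cantharidin spots lay below all control spots and the OA spots overlapped with control. Among the alternatives run, the cantharidin difference was called only without scaling between arrays, at -0.60.

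RBL1, which encodes p107 and is itself an S phase gene, had 110.1 in control, 54.8 under cantharidin and 101 under OA by its brighter probe. The decrease was 1.83-fold with cantharidin (-0.87 ± 0.26), while the OA difference of -0.38 ± 0.28 was 1.30-fold, inside the threshold. With the normexp correction the cantharidin difference was -0.41 and was not called. On none of the arrays was its second probe well above background, so it gave no fold.

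RBL2, which encodes p130, the pocket protein most abundant in quiescent cells, had 561 in control, 112 under cantharidin and 81.0 under OA. The decrease was 4.55-fold with cantharidin (-2.19 ± 0.22) and 8.26-fold with OA (-3.05 ± 0.31). With normexp the decreases of RBL2 were 2.82-fold and 3.99-fold, and in the deposited normalized table the OA decrease was 13.0-fold (-3.70). RBL2 had the largest OA difference of the members as reported here, but with normexp it was behind E2F1 and E2F2. Control was highest for RBL2 as for E2F1 and E2F2, but the order of the agents was the other way round, with OA lowest. The OA signal of RBL2 was only 1.40 times that array's lowest signal well above background. Its difference between the agents was inside the threshold under normexp (-0.50) and without scaling (-0.47).

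**Figure D3:**
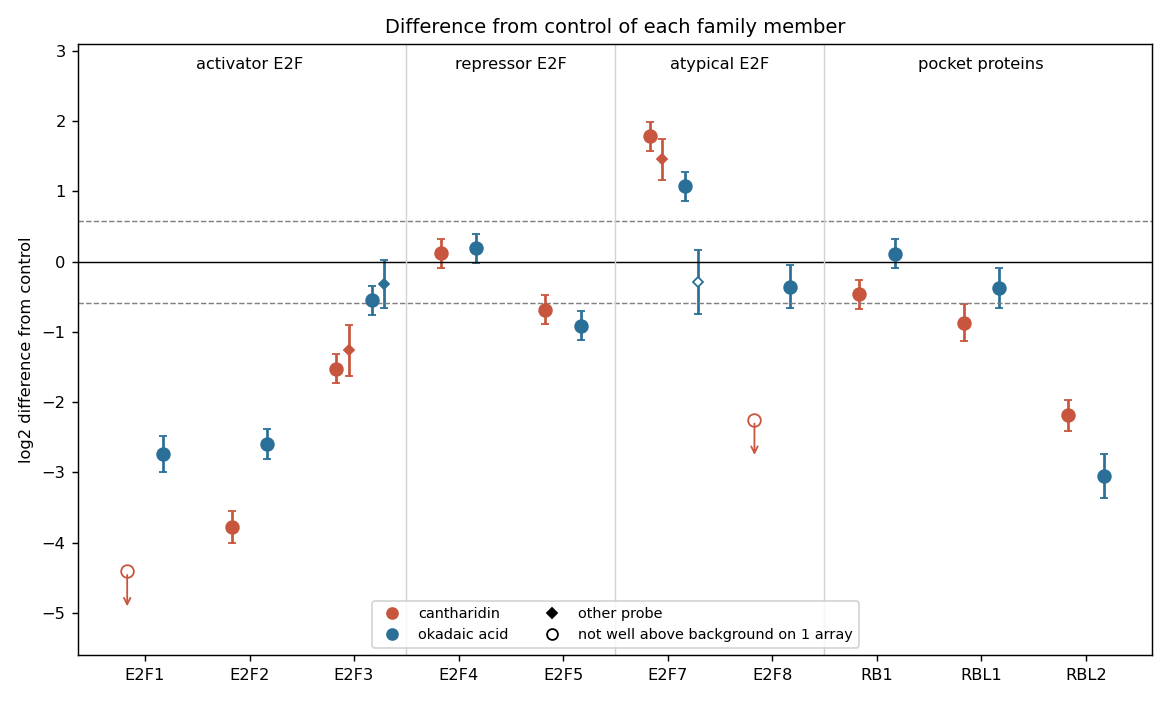
Log2 difference of each member from control under cantharidin and OA, grouped by role, with the scanner error as bars, dashed lines at 1.5-fold and diamonds for second probes. Open circles with an arrow are E2F1 and E2F8 under cantharidin, not well above background there. E2F1 is drawn at its measured difference and E2F8 at its bound. The open diamond is the second E2F7 probe under OA, at its measured difference. E2F1, E2F2 and RBL2 lie far below the lower line for both agents, E2F8 only for cantharidin, E2F7 lies above the upper line by its brighter probe, and E2F4 lies inside both lines for both agents.

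Set against cantharidin, OA cells had 4 members higher, 2 lower and 4 within 1.5-fold, where 29.5% of all 16200 genes compared were higher, 22.3% were lower and 48.2% were within. The median was 0.54 for the family and 0.13 for all genes. All 3 activators were higher under OA than under cantharidin. E2F1 was 3.19-fold higher as measured, with a cantharidin signal not well above background. E2F2 was 2.27-fold higher (1.18 ± 0.24) and E2F3 was 1.96-fold higher (0.97 ± 0.21). E2F8 was at least 3.72-fold higher. With normexp E2F8 was 1.72-fold higher (0.78) and E2F1 was inside the threshold (0.57). RBL2 was 1.81-fold lower (-0.86 ± 0.32) and E2F7 was 1.64-fold lower (-0.71 ± 0.21). RB1 was just short of the threshold, at 0.58 ± 0.20, and RBL1 was at 0.49 ± 0.30, while E2F4 (0.07 ± 0.21) and E2F5 (-0.23 ± 0.21) differed by about the scanner error or less. Without scaling between arrays the counts were 6 higher and 0 lower, and the median of all genes moved from 0.13 to 0.52.

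**Figure D4:**
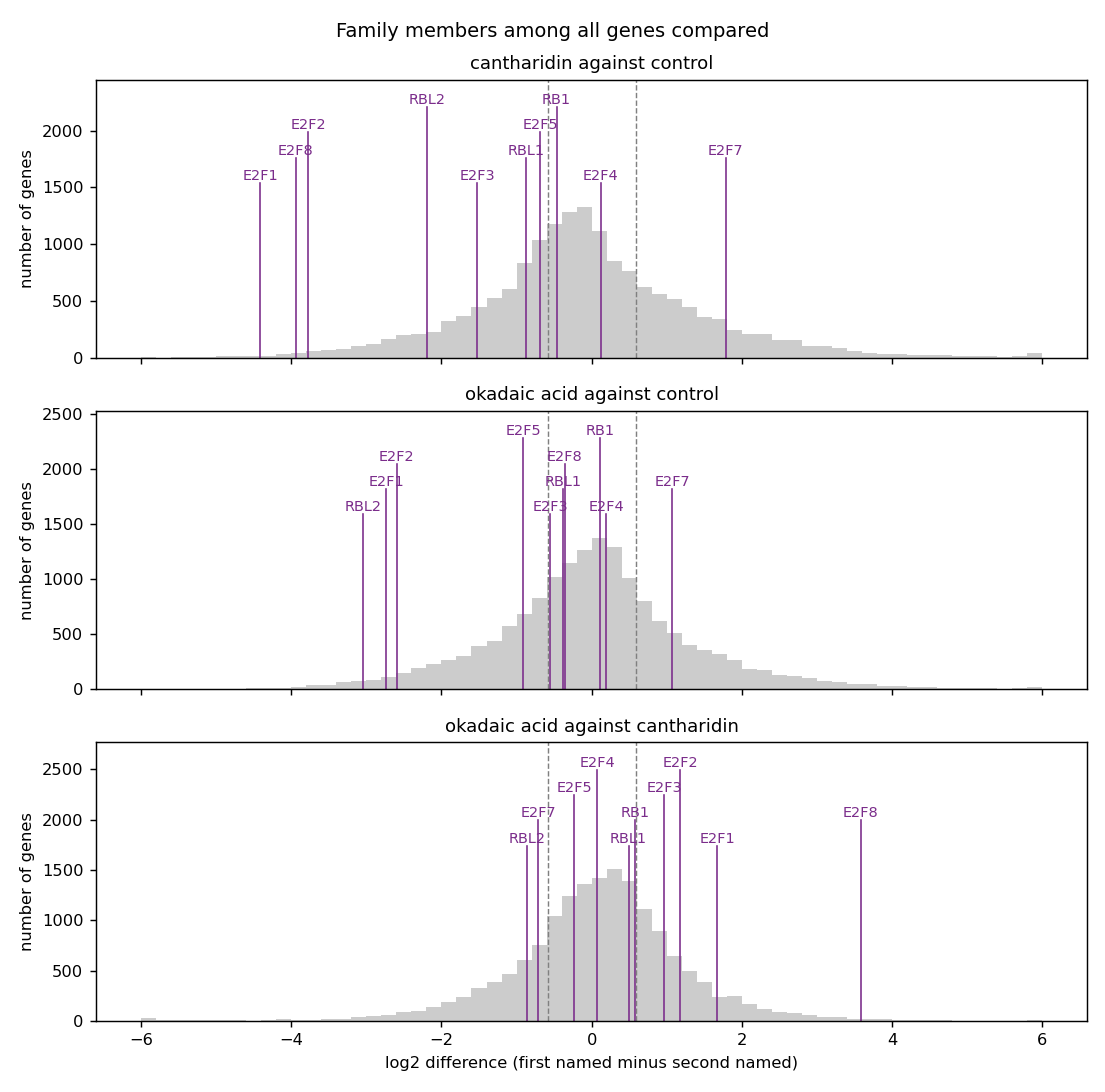
Number of genes by log2 difference for the 3 comparisons, with each member drawn as a line, dashed lines at 1.5-fold and the few genes beyond 6 log2 units placed in the end bins. E2F1 and E2F8 are drawn at their measured signal, which was not well above background on the cantharidin array. Against control most members lie left of the centre of all genes, and E2F7 lies to the right.

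The genes that work with the family were described as lists. Folds of single list genes use the scanner software's background subtraction only. For family members with dim signals, such as E2F1 and E2F2 under cantharidin, normexp gave smaller folds. The DP partners of the typical E2Fs were all called lower under cantharidin, and 2 of 3 were called lower under OA. Of all genes, 34.1% and 28.8% were called lower. TFDP1 had 2616 in control, 912 under cantharidin and 1413 under OA, a decrease of 2.61-fold with cantharidin and 2.21-fold with OA, and its second probe was lower by 2.29-fold and 1.82-fold. TFDP2 was 1.76-fold lower under cantharidin, and its 1.31-fold decrease under OA stayed inside the threshold. TFDP3 was at least 1.80-fold lower under cantharidin, and its OA call rests on a signal that was not well above background and gives no fold.

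Of 42 textbook E2F target genes of S phase entry, 36 (85.7%) were lower under cantharidin and 1 was higher, and 28 (66.7%) were lower under OA and 2 were higher. Over all genes the shares were 34.1% lower and 27.5% higher under cantharidin, and 28.8% and 28.1% under OA. The medians of the targets were -1.82 and -1.16, against -0.16 and 0.01 for all genes. TYMS, which makes thymidylate, was lower by 16.0-fold with cantharidin and 17.0-fold with OA, GINS1, a subunit of the replicative helicase, by 17.8-fold and 13.5-fold, and CCNA2, cyclin A2, by 22.5-fold and 14.7-fold. EZH2, a histone methyltransferase, was the only target higher under both agents, by 4.47-fold and 4.89-fold, and CCNE1, cyclin E1, was 2.52-fold higher under OA only. In OA cells 20 of 40 targets (50%) were higher than in cantharidin cells and 3 (7.5%) were lower, beside 29.5% and 22.3% of all genes. The median was 0.59 against 0.13 for all genes. The E2F words were present in 20 of 51 promoter windows of the targets (39.2%), on 19 of the 36 genes matched, against 3.31% of all windows.

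Of the 10 kinases and cyclins that act on pocket proteins, 8 were lower and 1 higher under cantharidin (median -1.85), and 4 were lower and 2 higher under OA (median -0.44). Of all genes, 34.1% were lower and 27.5% higher under cantharidin, and 28.8% and 28.1% under OA, so the OA share of higher calls lies near that of all genes. CDK1 had 10139 in control, 151 under cantharidin and 477 under OA, a decrease of 61.1-fold and 25.4-fold, and CDK2 was lower by 6.39-fold and 5.93-fold. CCND2, cyclin D2, was 10.5-fold higher under cantharidin and within 1.5-fold under OA (0.33). Between the agents 6 of the 10 were higher under OA and 1 was lower (median 0.63), where 29.5% of all genes were higher and 22.3% lower (median 0.13). CCNE1, CCNE2 and CCNA2 are counted both here and among the S phase targets.

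Of 9 PP1 and PP2A subunits, which dephosphorylate pocket proteins, 3 were higher and 3 lower under cantharidin (median 0.44), and 1 was higher and 4 lower under OA (median -0.52). The cantharidin shares of 33.3% each lie near the 27.5% higher and 34.1% lower of all genes, whereas under OA the shares were 11.1% and 44.4% beside 28.1% and 28.8%. PPP2CA, a catalytic subunit of PP2A, was 1.65-fold and 1.51-fold higher, and PPP1CC, a catalytic subunit of PP1, was 2.57-fold and 3.48-fold lower. The OA increase of PPP2CA lies close to the threshold. It is the 1 higher call under OA, a count that became 0 with scaling to the array median and at 2-fold. Between the agents 1 subunit was higher under OA and 4 were lower (median -0.50). These shares of 11.1% and 44.4% stand beside 29.5% and 22.3% of all genes.

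The MuvB proteins form the DREAM complex with p130 and E2F4 in resting cells and join MYBL2 and FOXM1 at later phases. Of these 8 genes, 4 were lower and 2 higher under cantharidin (median -0.64), 3 were lower and 2 higher under OA (median -0.17), and 3 were higher and 2 lower under OA than under cantharidin (median 0.26). The shares of 50% lower and 25% higher under cantharidin and 37.5% and 25% under OA stand beside 34.1% and 27.5%, and 28.8% and 28.1%, of all genes. Between the agents, 37.5% higher and 25% lower lie near the 29.5% and 22.3% of all genes. Without scaling between arrays the OA median turned to 0.09. FOXM1 was lower by 8.48-fold with cantharidin and 13.9-fold with OA, and MYBL2, also counted among the S phase targets, by 3.95-fold and 4.11-fold. LIN37 was 4.31-fold and 11.7-fold higher, and LIN54, the DNA-binding subunit, was 1.66-fold and 4.71-fold higher. LIN9 was within 1.5-fold by its brighter probe (0.14 and 0.19), whereas its second probe was 6.29-fold and 3.26-fold lower.

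Of 14 chromatin corepressors of pocket proteins that could be compared, 6 were lower and 4 higher under cantharidin (median -0.20), 5 were lower and 3 higher under OA (median 0.14), and 6 were higher and 3 lower under OA than under cantharidin (median 0.53). These shares of 42.9% lower and 28.6% higher under cantharidin and 35.7% and 21.4% under OA lie near the 34.1% and 27.5%, and the 28.8% and 28.1%, of all genes. Between the agents, 42.9% higher and 21.4% lower stand beside 29.5% and 22.3% of all genes. SUV39H1, a histone H3 lysine methyltransferase, was 5.07-fold and 3.19-fold lower by its brighter probe and 1.55-fold and 1.63-fold lower by the other. SMARCA4, a chromatin remodelling ATPase, was 4.49-fold and 3.59-fold higher.

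Of 10 cell death genes known as targets of E2F1, 4 of 9 compared were higher and 2 lower under cantharidin (median 0.26), 7 were higher and 0 lower under OA (median 0.84), and 5 were higher and 1 lower under OA than under cantharidin (median 0.38). Of all genes, 27.5% were higher and 34.1% lower under cantharidin, 28.1% and 28.8% under OA, and 29.5% and 22.3% between the agents. The median between the agents turned to -0.05 when all 3 arrays had to be well above background and to -0.06 when probes of 1 gene were summarised by their median. HRK, a BH3-only protein that promotes apoptosis, had 204 in control, 1012 under cantharidin and 1254 under OA, an increase of 5.46-fold and 5.15-fold. BCL2L11, which encodes BIM, was higher by 2.00 and 1.42 on the log2 scale, and PMAIP1, which encodes NOXA, by 3.69-fold and 2.11-fold.

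Of 6 regulators of the stability or activity of the family, 2 were lower and 1 higher under cantharidin (median -0.18), 1 was lower and 2 higher under OA (median 0.27), and 3 were higher and 0 lower under OA than under cantharidin (median 0.52). The cantharidin shares of 33.3% lower and 16.7% higher and the OA shares of 16.7% and 33.3% stand beside 34.1% and 27.5%, and 28.8% and 28.1%, of all genes. Between the agents, 50% higher and 0% lower stand beside 29.5% and 22.3% of all genes. CDKN2A, which encodes cell cycle inhibitors, is counted higher under OA by its brighter probe (1.57), while its second probe was at least 1.78-fold lower there. Under cantharidin the brighter probe was within 1.5-fold (-0.05), while the second was 2.66-fold lower (-1.41). The CDKN2A calls in these counts therefore depend on the probe. SKP2, a ubiquitin ligase subunit, had 954 in control, 58.3 under cantharidin and 277 under OA, a decrease of 14.9-fold and 4.12-fold. The deacetylase SIRT1 was 3.14-fold and 3.61-fold higher.

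**Figure D5:**
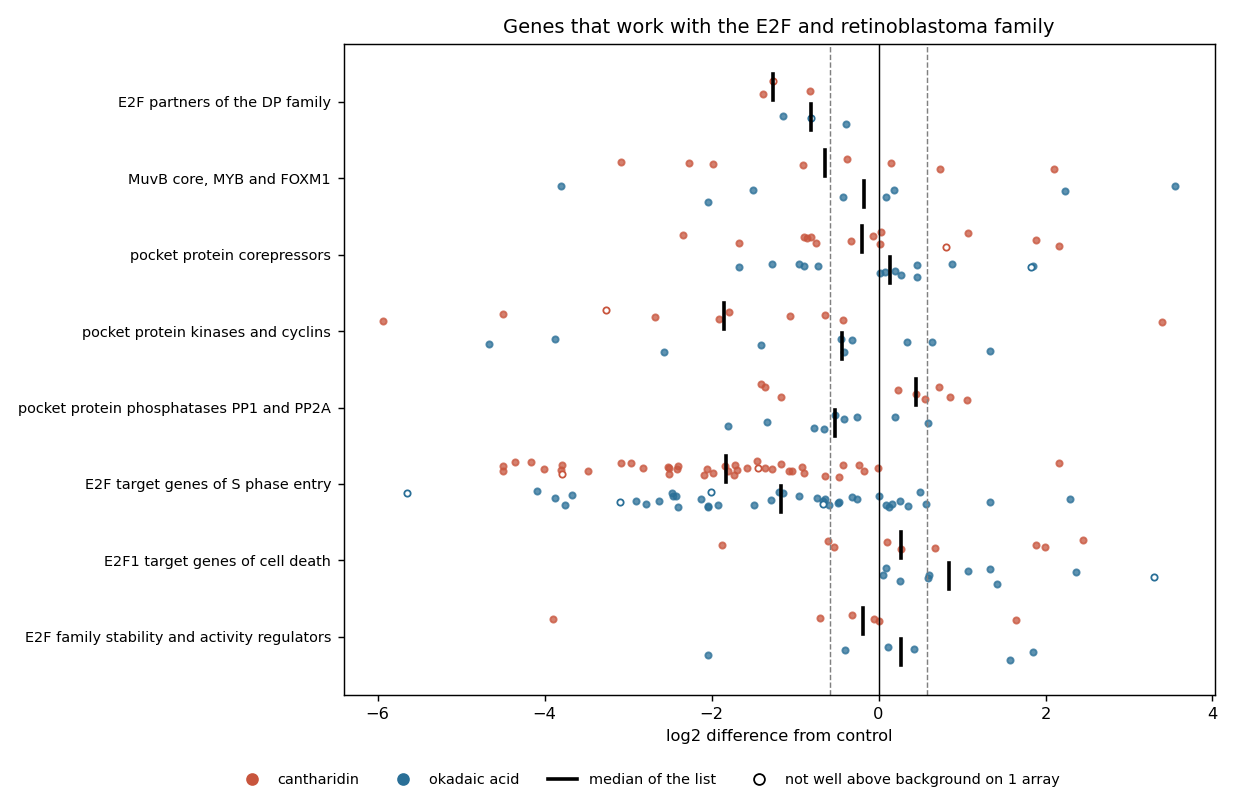
Log2 difference from control of every compared gene of the 8 lists, with cantharidin and OA as separate rows of points, a bar at each list's median, dashed lines at 1.5-fold, and open points where 1 array was not well above background. The S phase targets and, under cantharidin, the kinases and cyclins lie mostly left of the lower line, and the cell death targets lie mostly right of 0 under OA.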

How the data were processed

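Total RNA of control, cantharidin-treated and OA-treated PANC-1 cells was measured on 3 Agilent 1-colour arrays, grouped by their titles. The authors deposited the intensity of each spot from Feature Extraction 11.0.1.1 (probe annotation hg19), after background subtraction and removal of spatial trends, unscaled between arrays. A further deposited table held normalized log2 values of 30923 probes, including all 13 family probes, which was used as an alternative. Its normalization and centring are not given in the sources used here. Over probes, each column had r of at least 0.998 with the log2 intensities of the matching array, and the column medians were all 7.74. All arrays shared 1 slide and 1 scan, so position on the slide cannot be told apart from the group.

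Spots with outlier flags were dropped, log2 intensities were averaged by probe, and the array's 75th percentile (784 for control, 713 for cantharidin and 936 for OA) was subtracted. A probe was well above background when most of its spots carried that flag, and was compared when this held on at least 1 of 2 arrays. No probe was saturated. Calls at 1.5-fold, the fold used by the study, rest on the measured difference. For a bound, the dim signal was raised to the array's lowest signal well above background where it lay under it (35.0, 21.9 and 58.0). Transcript accessions were matched to RefSeq symbols of GRCh38.p14, which named 25705 probes. Of several probes of a gene, the one brightest on average (log2) stood for it. The number of arrays limits the precision.

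The family and all lists were chosen with earlier results of these data known. All family probes were named. From each list, the text names genes among the 3 per direction with the largest mean difference over both agents among genes measured on all arrays, plus genes called in opposite directions under the agents. TFDP3 falls outside this rule and is named as the remaining DP gene. The result of 1 list of cell type markers is not reported here. Calls were tested on simulated arrays in which few, bright probes were changed and all probes were set well above background. That test did not cover dim probes, bounds, or arrays with as many changes as these. The normexp alternative (offset 50) was planned on the mean spot intensity. It used the median spot and background intensity instead, because the authors supplied medians and not means. Other scalings were to the median, to the 75th percentile of probes detected on every array, by quantiles or not at all. Further alternatives were a requirement that all 3 arrays be well above background, no filter and the deposited table. The last were dim signals set to the floor of their array, the median over probes and a 2-fold threshold. Keeping spots with outlier flags was an alternative added after the data were seen. Tools were Python 3.11.15 (pandas 2.3.3, numpy 2.4.6, matplotlib 3.10.9) and, for normexp, R 4.3.3 (limma 3.58.1).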

Additional observations from a re-analysis of the deposited data

Results flagged for a closer look

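In 5 genes of the lists the 2 agents moved the signal past 1.5-fold in opposite directions from the same control array, and with 1 array per group the difference was not tested. HDAC3, a deacetylase recruited by pocket proteins, had a log2 difference of 1.07 under cantharidin and -0.89 under OA. CCND3, cyclin D3, was at -1.79 and 0.64. PPP2R2A, a regulatory subunit of PP2A, was at 0.86 and -0.77. The BH3-only gene BMF was at -1.88 and 0.61, and its second probe was called in the same directions. BBC3 was at -0.61 and 0.59, both close to the threshold. No family member was called in opposite directions by its brightest probe.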

How the results depend on the processing

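No paired analysis was possible because each group has 1 array, and for the same reason no array could be left out. No called family member changed direction among 324 values under the alternatives, while 4 uncalled values changed sign: E2F4 without scaling under cantharidin (-0.02), E2F4 between the agents (-0.08) and RB1 under OA (-0.01) with scaling to the median, and E2F5 between the agents without scaling (0.16). Of the 324 values, 309 kept their side of the 1.5-fold threshold. Of the 15 others, OA against cantharidin was affected in 7: E2F1 (0.57) and RBL2 (-0.50) lost their call under normexp, and RBL2 (-0.47) and E2F7 (-0.32) lost it without scaling, while RB1 was called at 0.59 with the percentile of probes detected on every array and at 0.97 without scaling, and RBL1 at 0.89 without scaling. Against control, E2F3 under OA was called with scaling to the median (-0.67), and E2F8 (-0.61) and RBL1 (-0.63) under OA were called in the deposited table. The other 5 are given beside those genes above. The cause was not tested.

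For the family as a whole, members lower under OA than under cantharidin fell from 2 to 0 at 2-fold and without scaling and to 1 under normexp, and members higher fell from 4 to 2 when all 3 arrays had to be well above background. The 1 member higher under OA than control became 0 with the median over probes. Members lower under cantharidin than control fell from 7 to 5 under normexp and at 2-fold. They also fell to 5 when all 3 arrays had to be well above background, and rose to 8 without scaling. The family median under cantharidin ran from -1.33 without scaling to -0.74 under normexp. The family median under OA was -0.62 in the deposited table and -0.59 with scaling to the median, and between the agents it was 0.93 without scaling.

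Among S phase targets, 3 were lower under OA than under cantharidin, which became 1 at 2-fold and without scaling, 0 under normexp and 5 with scaling to the median. Without scaling, 5 were higher under OA than in control. Their median between the agents was 0.57 in the deposited table, 0.54 with the median over probes, 0.33 under normexp, 0.49 with quantiles and 0.44 with scaling to the median.

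For the other lists, without scaling the medians between the agents were 0.91 for the stability regulators, 0.73 for the DP family, 0.77 for the cell death targets, 0.65 for the MuvB list and 0.92 for the corepressors. The DP median under OA was -0.56 without scaling, -0.40 under normexp and -0.39 with dim signals at the floor. With the median over probes, the stability regulators were at 0.59 between the agents, the cell death targets at 0.67 under cantharidin and the MuvB list at -0.83 under OA. The MuvB median under cantharidin was -0.57 with the percentile of probes detected on every array. Between the agents the kinases and cyclins were at 0.46 under normexp and 0.48 with scaling to the median, and the phosphatases at -0.59 and -0.65. The phosphatase median under OA was -0.64 with scaling to the median.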
